A study of Mus spretus with 19 samples.

Results

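Csad, Cdo1, Cth, Cbs, Bhmt, Mat1a, Gnmt, Ahcy and Slc6a6 code for enzymes and a transporter of taurine and sulfur amino acid metabolism, and their liver RNA is described here across 5 sampling sites. They were chosen by symbol, which gave 14 probes of 9 genes among 41174 probes and 27845 gene names on the array. The set was chosen because Csad differed strongly between 2 of the sites, DR1 and DR6. For that reason every Csad difference that involves DR1 or DR6, and every difference of any of the genes between DR1 and DR6, is given as a description without a test.

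The animals were wild-caught male Algerian mice (Mus spretus). No strain, allele or experimental treatment applies, and the animals' age is not given in the sources used here. Of the polluted sites, one was the phosphogypsum stacks (PS), deposits of waste from fertilizer production, and the others were the lower (DR1), medium (DR4) and upper (DR6) course of the Domingo Rubio stream. The unpolluted site was the Santa Olalla lagoon (SOL), and each polluted site was compared with it. At each site RNA from the livers of 9 mice was combined into 1 pool, and 1 µg of pooled RNA was labelled with the dye Cy3 for each of 4 arrays. DR6 has 3 arrays here, which makes 19 arrays in all. All arrays of a site carry RNA of the same pool. The p-values below therefore compare a difference with the scatter of repeated labelling and hybridization, and they hold no spread between mice or pools. The same limit applies wherever arrays of different sites are said not to overlap. The share of all genes without overlap is not given, so a lack of overlap is a description only. Each site also had its own slide and its own scan, so site, slide and scan cannot be told apart.

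The liver degrades methionine through S-adenosylmethionine and homocysteine. Homocysteine is either methylated back to methionine or passed through cystathionine to cysteine, and cysteine is in turn oxidized to taurine, built into glutathione or broken down to sulfide and sulfate. Taurine is the amino acid that rodent liver joins to bile acids, and cells also take it up from the blood as an osmolyte and antioxidant.

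The probes were 60-base oligonucleotides designed on Mus musculus sequence, and where Mus spretus differs from it a probe can give a lower signal. Such differences were not tested, nor whether they varied between the sites. The sequences shown are those on which a result turns: both Csad probes because 2 places in the transcript give the Csad values, the Cth probe because Cth carries the only calls at all 4 polluted sites, and 1 probe each of Gnmt, Ahcy and Slc6a6 because the level of that probe departs on 1 array or differs from the other probes of its gene. They were copied from the deposited files, 5′ to 3′. For Csad and Cth only the first 30 of 60 bases are given. No base is capitalized, since no motif or mismatch was looked for.
Csad A_51_P325776, first 30 bases: gtattggctgtcaggaaggtgtctaaacac
Csad A_51_P268529, first 30 bases: tcacagtatctgagttaggctaaaaatcac
Cth A_51_P431737, first 30 bases: ccaaatcttcggaataactggacagatcat
Gnmt A_51_P419439: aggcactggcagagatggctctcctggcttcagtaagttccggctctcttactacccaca
Ahcy A_52_P176160: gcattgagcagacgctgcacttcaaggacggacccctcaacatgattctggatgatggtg
Slc6a6 A_52_P178151: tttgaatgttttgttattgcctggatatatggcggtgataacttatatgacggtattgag
On the mm8 mouse build used by the array's annotation, the Csad probes lie at chr15:102005466-102005525 and chr15:102005172-102005231, both on the minus strand and 294 bases apart. They do not overlap, and their longest shared run is 7 bases. The Cth probe lies at chr3:157829996-157830055 on the minus strand. The Ahcy probe lies at chr2:154757026-154757085 on the minus strand. The Gnmt probe covers chr17:46189136-46189284 (minus strand), a span of 149 bases, and the Slc6a6 probe covers chr6:91715303-91715805 (plus strand), a span of 503 bases, so both 60-base sequences are interrupted in the genome. No annotation of exons or untranslated regions was used here.

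Levels are given as the log2 of a probe's background-subtracted signal relative to the 75th percentile of all gene spots on the same array, so 0 is the 75th percentile and 1 unit is a 2-fold difference. The 75th percentile itself was between 99.5 and 285.2 signal units on the 19 arrays, and 52.0% to 61.5% of gene spots were well above background. Levels of different probes cannot be set against each other. A gene was represented by its brightest probe and was called when limma's adjusted p was under 0.05 and the difference at least 2-fold, 1 on the log2 scale. Of all 16355 genes tested, 4.43% were called against SOL at PS, 6.09% at DR1, 10.5% at DR4 and 6.95% at DR6. Of the 14 probes, 13 were well above background on all 19 arrays. The exception, Csad probe A_52_P940077, which lies 20208 bases from the brightest one, was well above background on 0 arrays and was left out. All 9 genes passed the filter on low signals with at least 1 probe.

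The labelled tissue was checked against 11 hepatocyte marker genes, of which 9 were measured and all of those were above background at every site. The summed hepatocyte marker level was 10.70 to 10.87 at PS, 10.48 to 10.76 at DR1, 10.78 to 10.88 at DR4, 11.17 to 11.18 at DR6 and 10.77 to 11.05 at SOL. None of the 9 was called in any of the 4 comparisons with SOL, with medians of −0.12 at PS, −0.09 at DR1, 0.02 at DR4 and 0.52 at DR6. Of these 9, Alb1 and Apoa2 were saturated on all 19 arrays and Apoa1 and Ass1 on 2 arrays each, so their levels are minima there and the sums and medians are limited by them. The 5 markers with no saturated spot summed to 8.52 to 8.57 at PS, 8.62 to 8.78 at DR1, 8.91 to 8.97 at DR4, 9.15 to 9.34 at DR6 and 8.4 to 8.51 at SOL. Their median changes were 0.11 at PS, 0.29 at DR1, 0.38 at DR4 and 0.65 at DR6, a subset taken after the data were seen. RNA of exocrine pancreas differed between the pools: the summed level of 11 measured markers of 14 was 8.06 to 8.07 at PS, 8.97 to 9.34 at DR1, 6.64 to 7.18 at DR4, 10.37 to 10.40 at DR6 and 10.10 to 10.23 at SOL. Of those 11 markers, 11 were lower at PS, 3 at DR1, 11 at DR4 and 0 at DR6 by the call. Of 6 measured kidney tubule markers, 3 were called higher and 1 lower at PS, 1 was called lower at DR4 and 1 higher at DR6. Their summed level was 1.56 to 1.62 at PS, against 2.03 to 2.26 at SOL, and 2 of the 6 were above background on no SOL array. Of 7 macrophage markers, 0 were called lower at PS, 1 at DR1, 3 at DR4 and 1 at DR6, and of 4 erythroid markers 0 at PS, 1 at DR1, 4 at DR4 and 3 at DR6. Called higher were 3, 2, 0 and 1 of 5 B and plasma cell markers at PS, DR1, DR4 and DR6, and 0, 3, 0 and 2 of 7 stellate and fibroblast markers. The part of these other cell types in the results below was not tested. In RNA from whole liver, fewer cells of a type and less RNA per cell cannot be told apart.

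Csad codes for cysteine sulfinic acid decarboxylase, the enzyme that makes hypotaurine, the direct precursor of taurine. Its level was highest at DR6 and lowest at DR1, 15.3-fold apart. The PS arrays read 1.86, 1.96, 1.93 and 2.06, the DR1 arrays 0.43, 0.29, 0.07 and 0.52, and the DR4 arrays 0.95, 0.93, 0.92 and 1.02. The DR6 arrays read 4.24, 4.27 and 4.27, against 1.32, 1.16, 1.22 and 1.27 on the SOL arrays. The arrays of the 5 sites did not overlap, in the order DR6, PS, SOL, DR4 and DR1. DR6 was thus 8.11-fold above SOL (3.02 ± 0.085 on the log2 scale, SE) and DR1 was 1.89-fold below SOL (−0.92 ± 0.078). DR1 differed from DR6 by −3.94 ± 0.085, the contrast for which the genes were chosen.

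**Figure D1:**
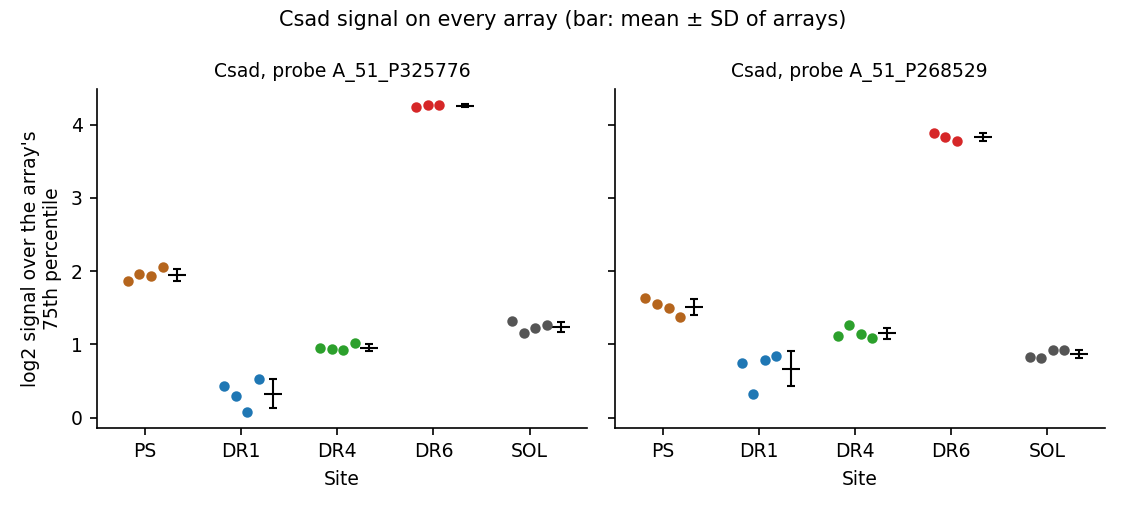
The plot shows Csad on every array for its 2 measured probes, with the log2 signal over the array's 75th percentile on the y axis and the site on the x axis. Each point is 1 array and each bar the mean ± SD of the arrays of a site (n = 4, and 3 at DR6); DR6 stands above all other sites with both probes, while DR4 lies below SOL with probe A_51_P325776 and above it with probe A_51_P268529.

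The comparisons of Csad that the choice of genes did not use were PS with SOL, DR4 with SOL and PS with DR4. Csad was 1.63-fold higher at PS than at SOL (0.71 ± 0.078, adjusted p = 2.7e-06) and 1.22-fold lower at DR4 than at SOL (−0.29 ± 0.078, adjusted p = 0.00514), and neither reached 2-fold. PS was 1.99-fold above DR4 (0.99 ± 0.078, adjusted p = 1.71e-08), just short of the call. Without array 1 or array 3 of PS, or array 4 of DR4, the PS to DR4 difference was 1.02, 1.0 and 1.02 and was called. With the other measured probe, described next, it was 1.29-fold (0.36 ± 0.093, adjusted p = 0.00347).

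The other measured Csad probe, A_51_P268529, also had DR6 at the top. It read 1.63, 1.55, 1.5 and 1.37 at PS, 0.74, 0.32, 0.78 and 0.84 at DR1, and 1.11, 1.26, 1.14 and 1.09 at DR4. At DR6 it read 3.89, 3.83 and 3.78, against 0.83, 0.81, 0.92 and 0.92 at SOL. With this probe DR6 was 8.95-fold above DR1, less than the 15.3-fold of the first probe. DR6 was 7.79-fold above SOL and PS 1.56-fold above SOL (0.64 ± 0.093, adjusted p = 5.43e-05), close to the first probe. The probes differed at the lower end: DR1 overlapped SOL, at −0.20 ± 0.093, and DR4 was higher than SOL, not lower (0.28 ± 0.093, adjusted p = 0.0181). PS was thus above SOL with both probes, and the direction of DR4 against SOL differed between them. That DR6 was above SOL with both probes is a description only. Csad at DR6 was used to choose the genes, and both probes read the same pools. In the older array design used for the DR1 slide, A_51_P268529 carries only a transcript number and not the symbol Csad.

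Set against all 16355 genes tested, the spread of Csad over the sites (3.94 between the highest and the lowest site mean) was at the 99.6th percentile, where the median gene spread by 0.68 and 25% of genes spread by 2-fold or more. These values chose the genes and are a description only. DR6 exceeded the next site, PS, by 2.31 (4.97-fold). For 77 genes, 0.471% of those tested, DR6 was at least 2-fold above each of the other sites, and 12 of these, Csad included, had a margin as large as that of Csad.

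Within 100 kb on either side of the Csad probe, 12 probes of 8 other genes passed the filter on low signals. This window was chosen after the data were seen. Of the 12, 10 were well above background on all 19 arrays, and their DR6 to SOL differences ran from −0.31 for Zfp740 to 0.73 for Tenc1. A probe of Rarg, a retinoic acid receptor gene, was above background on every array of both sites and differed by −0.31. The remaining probe, also of Rarg, was above background on 0 arrays of DR6 and 0 of SOL, so no difference is given for it. Soat2, which codes for an enzyme that esterifies cholesterol, lies 16396 bases away. It read −0.76 at PS, −2.80 at DR1, −2.85 at DR4, −0.83 at DR6 and −0.68 at SOL, low at DR1 and DR4, with DR6 and SOL differing by −0.14. The 11 neighbouring probes measured at both sites were all within 2-fold between DR6 and SOL.

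Of 13479 genes searched by the distance between site profiles (root mean square difference of the 5 site means, each centred on its own mean), those most like Csad included Ankrd22, 4931417G12Rik, Olfr1350 and Uap1l1. Ankrd22 lay 0.41 from Csad, with −1.89 at PS, −3.10 at DR1, −2.77 at DR4, −0.34 at DR6 and −3.02 at SOL. The other 3 lay between 0.55 and 0.65. Of these, 4931417G12Rik read −3.60 at DR6 and from −6.51 to −6.25 elsewhere. It was well above background on only 3 arrays, which by the filter belong to a single site. Its profile therefore rests on levels at background elsewhere, and its likeness to Csad is not a result. For Olfr1350, not every DR6 array was above all arrays of the other sites. The likeness was taken over 5 site means, each from 1 pool and 1 slide.

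Cdo1 and Slc6a6 stand before and after Csad in taurine handling. Cdo1 codes for cysteine dioxygenase, which oxidizes cysteine to the substrate of Csad, and Slc6a6 codes for the taurine transporter of the plasma membrane. Neither was called in any comparison that was tested.

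Cdo1 read 6.61, 6.59, 6.48 and 6.49 at PS, 6.98, 7.18, 6.93 and 7.11 at DR1 and 7.0, 6.91, 6.80 and 6.85 at DR4. It read 7.49, 7.27 and 7.23 at DR6, against 6.75, 6.67 and 6.64 at SOL, where an outlier spot on 1 array was left out. All DR6 arrays were above all SOL arrays, by 1.56-fold (0.64 ± 0.083, adjusted p = 1.35e-05). DR1 was above SOL by 0.36 ± 0.077 (adjusted p = 0.00116). DR4 was above it by 0.20 ± 0.077 (adjusted p = 0.0347), a sign that turned to −0.107 under normexp, a model-based background correction, with the 75th percentile. The PS difference of −0.14 ± 0.077 did not pass the test (adjusted p = 0.171), although the arrays did not overlap. In the order DR6, DR1, DR4, SOL and PS, only DR1 and DR4 overlapped. Cdo1 and Csad thus both had their highest level at DR6, but at DR1, where Csad was lowest, Cdo1 lay above SOL.

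The brightest Slc6a6 probe, A_52_P339996, was within 2-fold everywhere, with site means of 3.56 ± 0.082 at PS, 3.02 ± 0.26 at DR1, 3.60 ± 0.12 at DR4, 3.25 ± 0.15 at DR6 and 3.37 ± 0.17 at SOL (SD, n = 4 arrays, 3 at DR6). Neighbours in the order DR4, PS, SOL, DR6 and DR1 overlapped throughout. Of its differences from SOL, that of DR1 alone had an adjusted p under 0.05 (−0.34 ± 0.12, adjusted p = 0.0231). Sites further apart in the order differed more. DR1 was below DR4 (−0.57 ± 0.12, adjusted p = 0.000713) and PS above DR1 (0.54 ± 0.12, adjusted p = 0.00116), both without overlap. With the probe described next, DR1 minus DR4 was −0.065 and PS minus DR1 was −0.062.

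The other Slc6a6 probe, A_52_P178151, gave another order. It read −1.33, −1.52, −1.11 and −1.34 at PS, −1.21, −1.31, −1.22 and −1.31 at DR1 and −0.96, −1.27, −1.18 and −1.38 at DR4, against −1.82, −1.78, −1.82 and −1.88 at SOL. Every array of these 3 sites was above every SOL array. The differences were 0.50 ± 0.094 at PS (adjusted p = 0.000601), 0.56 ± 0.094 at DR1 (adjusted p = 0.000114) and 0.63 ± 0.094 at DR4 (adjusted p = 2.5e-05). DR6, with −1.76, −1.79 and −1.52, differed by 0.14 ± 0.10 (adjusted p = 0.296). The direction at DR1 against SOL is therefore opposite for the 2 probes, and no direction is given for the gene there.

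**Figure D2:**
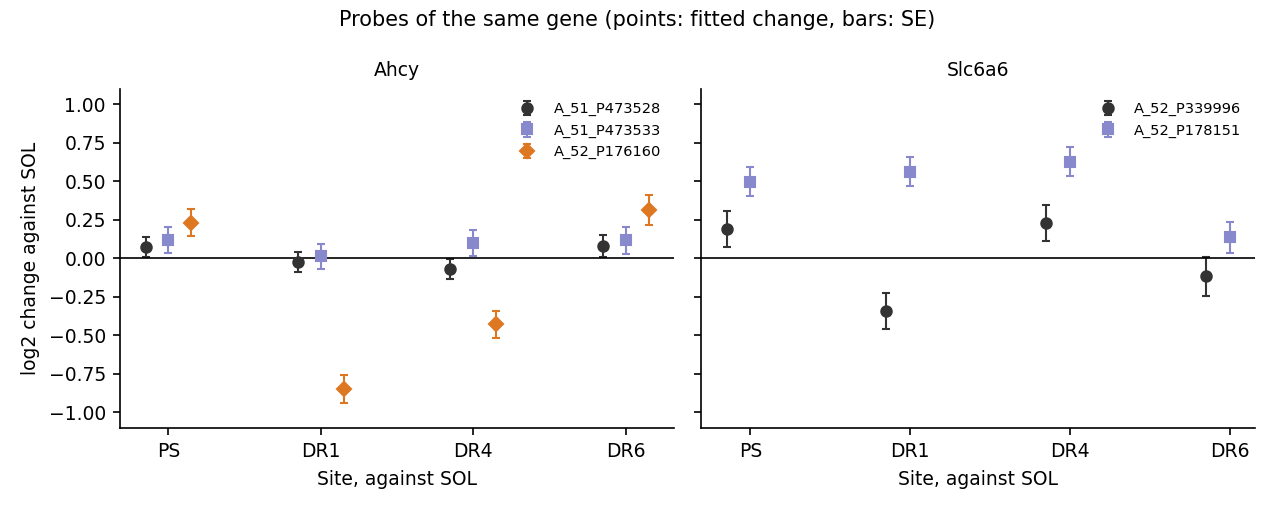
The log2 change of each polluted site against SOL is shown for the 3 probes of Ahcy (left) and the 2 probes of Slc6a6 (right), with points for limma's fitted change and bars for its SE. Ahcy probe A_52_P176160 falls to −0.85 at DR1 while the other 2 Ahcy probes stay at −0.02 and 0.01, and the Slc6a6 probes have opposite signs at DR1.

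Cth codes for cystathionine γ-lyase, which releases cysteine from cystathionine and is also a source of hydrogen sulfide. It was the only one of the 9 genes to be called higher in every comparison of a polluted site with SOL. The level was 7.02, 7.04, 7.12 and 7.14 at PS, 7.51, 7.62, 7.52 and 7.33 at DR1, 7.70, 7.65, 7.67 and 7.69 at DR4 and 6.95, 7.02 and 6.90 at DR6, against 5.95, 5.98, 5.89 and 5.91 at SOL. Every array of the polluted sites was above every SOL array.

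Cth rose 2.21-fold at PS (1.15 ± 0.058, adjusted p = 1.34e-10), 2.96-fold at DR1 (1.56 ± 0.058, adjusted p = 2.34e-12), 3.36-fold at DR4 (1.75 ± 0.058, adjusted p = 1.74e-13) and 2.03-fold at DR6 (1.02 ± 0.062, adjusted p = 1.36e-09). Over all genes, 87 (0.532%) were called higher at all 4 sites. These 4 comparisons share the SOL arrays. Among the polluted sites the order was DR4, DR1, PS and DR6. DR4 was above DR1 by 0.18 (adjusted p = 0.0157), DR1 above PS by 0.42 (adjusted p = 1.64e-05), and PS and DR6 overlapped (0.12, adjusted p = 0.124).

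The call at DR6 was close to the 2-fold limit. It was not made with array medians (0.94) or quantile normalization (0.96) in place of the 75th percentile, nor without array 2 of DR6 (0.99, adjusted p = 3.54e-08). With normexp and the 75th percentile, the adjusted p of Cth was 0.116 at PS and 0.11 at DR6, and the changes were 1.01 and 1.02. The calls at DR1 and DR4 held under every alternative tried, between 1.52 and 1.79 at DR1 and between 1.26 and 1.96 at DR4. With each pool counted as 1 unit, Cth averaged 7.30 ± 0.34 in the 4 polluted pools (SD, n = 4), against 5.93 in the single SOL pool, a difference of 1.37 ± 0.345 (SE). Its adjusted p in that limma fit was 0.998 (unadjusted 0.0064). In the same fit 0 genes of 16355 were called, and 665 (4.07%) had an unadjusted p under 0.05.

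**Figure D3:**
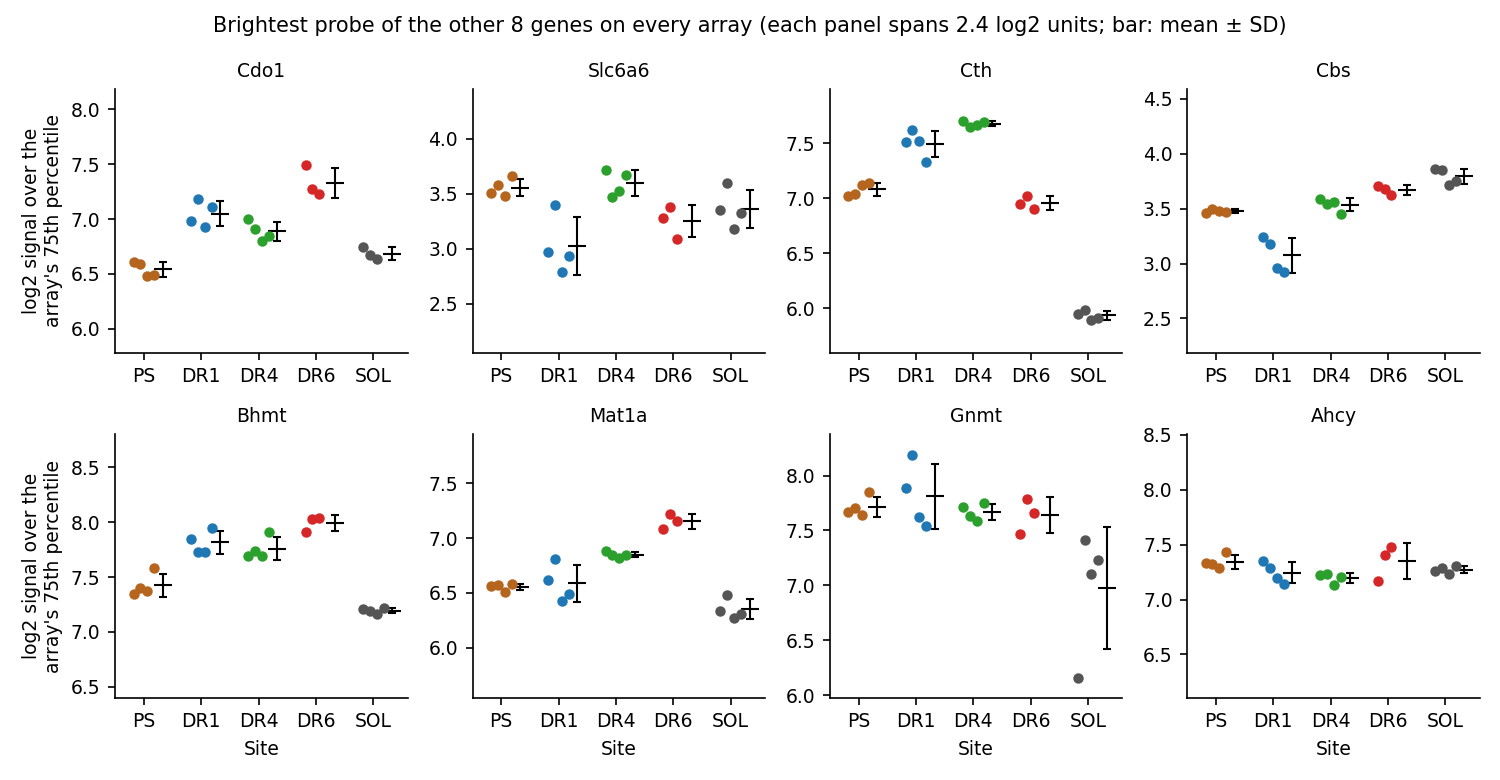
The brightest probe of the 8 genes other than Csad is shown on every array, with the site on the x axis and the log2 signal over the array's 75th percentile on the y axis, each panel spanning 2.4 log2 units. Points are arrays and bars the mean ± SD; Cth is below all other arrays at SOL, 1 SOL array of Gnmt lies apart at 6.16, and Ahcy stays between 7.13 and 7.48.

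Cbs codes for cystathionine β-synthase, which condenses homocysteine with serine to cystathionine, the substrate of Cth. Its direction was opposite to that of Cth: its mean was lower than SOL in all 4 polluted pools, although never by 2-fold. It read 3.24, 3.18, 2.96 and 2.92 at DR1, against 3.86, 3.85, 3.72 and 3.75 at SOL, a difference of −0.72 ± 0.066 (1.65-fold lower, adjusted p = 1.92e-07). The DR1 arrays were below those of every other site. At PS it was 1.25-fold lower (−0.32 ± 0.066, adjusted p = 0.0014) and at DR4 1.2-fold lower (−0.26 ± 0.066, adjusted p = 0.00333). At DR6 the difference of −0.12 ± 0.072 did not pass the test (adjusted p = 0.177). All 4 polluted pools were below SOL for 19.5% of all genes.

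Bhmt codes for betaine-homocysteine methyltransferase, which returns homocysteine to methionine with betaine as the methyl donor. Its level was above SOL at every polluted site, with no overlap of arrays. It read 7.35, 7.40, 7.37 and 7.58 at PS, 7.85, 7.73, 7.73 and 7.95 at DR1 and 7.69, 7.74, 7.69 and 7.91 at DR4. At DR6 it read 7.91, 8.03 and 8.04, against 7.21, 7.19, 7.16 and 7.22 at SOL. The differences were 0.23 ± 0.069 at PS (adjusted p = 0.0175), 0.62 ± 0.069 at DR1 (adjusted p = 1.71e-06), 0.56 ± 0.069 at DR4 (adjusted p = 2.81e-06) and 0.80 ± 0.075 at DR6 (1.74-fold, adjusted p = 2.66e-07). The 3 stream sites overlapped each other and lay above PS, and DR4 was below DR6 by the test (−0.24 ± 0.075, adjusted p = 0.0171). Bhmt was marked as saturated on 0 arrays. Its highest signal of 60398 units was nonetheless above the highest of Gnmt, 56075, a gene saturated on 1 array. The highest Bhmt levels may therefore be too low.

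Mat1a codes for the liver form of methionine adenosyltransferase, which makes S-adenosylmethionine. Like Bhmt it was highest at DR6 and lowest at SOL. It read 6.56, 6.57, 6.51 and 6.58 at PS, 6.62, 6.81, 6.43 and 6.49 at DR1 and 6.88, 6.85, 6.82 and 6.85 at DR4. At DR6 it read 7.08, 7.22 and 7.16, against 6.34, 6.48, 6.27 and 6.31 at SOL. DR6 was 1.75-fold above SOL (0.80 ± 0.077, adjusted p = 3.69e-07) and DR4 1.41-fold (0.50 ± 0.072, adjusted p = 1.57e-05), although DR4 differed from SOL by 0.03 under normexp with the 75th percentile. PS and DR1, which overlapped each other, exceeded SOL by 0.21 ± 0.072 (adjusted p = 0.0365) and 0.24 ± 0.072 (adjusted p = 0.012), and the DR1 arrays overlapped those of SOL. The 5 hepatocyte markers without saturated spots had median changes of 0.11 at PS, 0.29 at DR1, 0.38 at DR4 and 0.65 at DR6. Their part in the differences of Bhmt and Mat1a was not tested.

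Gnmt codes for glycine N-methyltransferase, an abundant liver enzyme that consumes surplus S-adenosylmethionine. It was above SOL at all 4 polluted sites and level among them, but 1 SOL array carried much of the difference. PS read 7.67, 7.70, 7.64 and 7.85, DR1 7.89, 8.19, 7.62 and 7.54, and DR4 7.71, 7.63, 7.59 and 7.75. DR6 read 7.47, 7.79 and 7.66, against 6.16, 7.41, 7.10 and 7.23 at SOL. No polluted array fell within the SOL range, and the SOL array at 6.16 is also the one with the lowest 75th percentile of signal among the 19. The signal was saturated on 1 DR1 array, so the 7.62 read there is a minimum.

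The Gnmt differences from SOL were 0.74 ± 0.20 at PS (adjusted p = 0.00948), 0.83 ± 0.20 at DR1 (adjusted p = 0.00277), 0.70 ± 0.20 at DR4 (adjusted p = 0.00784) and 0.67 ± 0.22 at DR6 (adjusted p = 0.0214). The DR1 value includes the saturated array, without which it was 0.90 (adjusted p = 0.00387). Without SOL array 1 they were 0.47, 0.56, 0.42 and 0.39. The 4 polluted pools lay within 7.64 to 7.81, with the saturated array at its minimum. All 4 polluted pools were above SOL for Cth, Bhmt, Mat1a and Gnmt, a pattern that 18.7% of all genes had.

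Ahcy codes for S-adenosylhomocysteine hydrolase, which frees homocysteine from the product left by methyl transfer. Its brightest probe hardly differed between sites: the means were 7.34 ± 0.058 at PS, 7.25 ± 0.094 at DR1, 7.20 ± 0.046 at DR4, 7.35 ± 0.16 at DR6 and 7.27 ± 0.035 at SOL (SD, n = 4 arrays, 3 at DR6). The spread of 0.15 between the highest and the lowest site was at percentile 0.991 of all genes. Its changes against SOL were 0.07, −0.02, −0.07 and 0.08 at PS, DR1, DR4 and DR6, each with an SE of 0.065 or 0.070 and adjusted p from 0.371 to 0.793. No direction is given, and the signs at DR1, DR4 and DR6 changed with the scaling.

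Probe A_51_P473533 of Ahcy gave 0.12, 0.01, 0.10 and 0.12 at the same 4 sites. The dimmest of the 3, A_52_P176160, differed from them. It read 3.31, 3.34, 3.43 and 3.44 at PS, 2.14, 2.16, 2.35 and 2.54 at DR1 and 2.66, 2.70, 2.82 and 2.69 at DR4. At DR6 it read 3.37, 3.42 and 3.59, against 3.30, 2.95, 3.18 and 3.16 at SOL. The DR1 and DR4 arrays were below all SOL arrays, by 1.80-fold at DR1 (−0.85 ± 0.089, adjusted p = 9.13e-07) and by 1.35-fold at DR4 (−0.43 ± 0.089, adjusted p = 0.000651). PS and DR6 were above SOL by 0.23 ± 0.089 (adjusted p = 0.0579) and 0.31 ± 0.097 (adjusted p = 0.0154). This is the Ahcy probe whose sequence is given above, and what sets it apart from the other 2 was not tested.

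**Figure D4:**
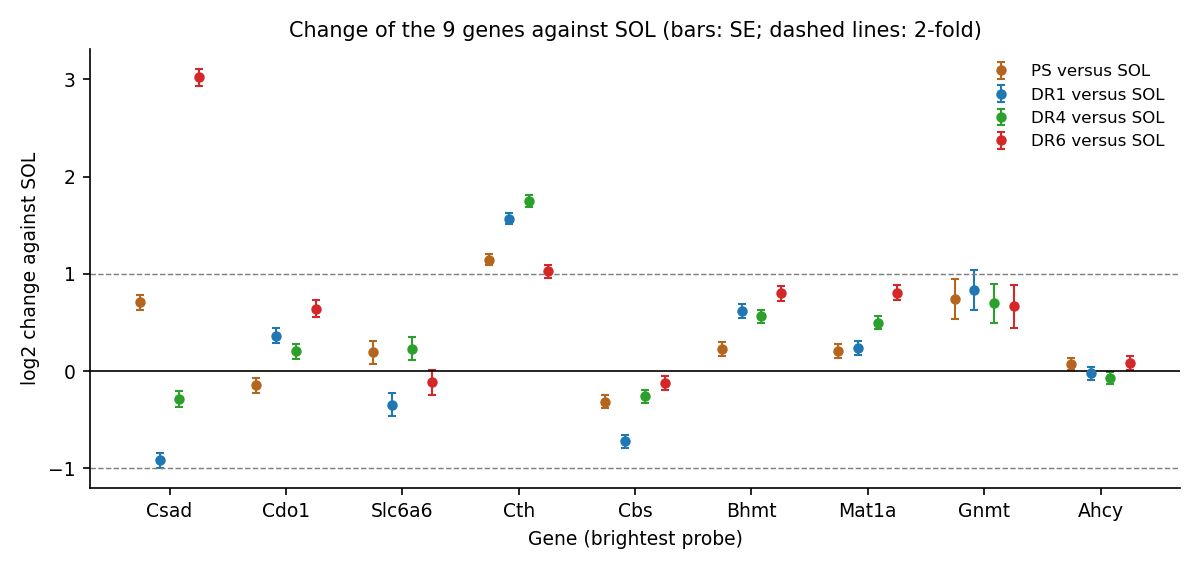
For each of the 9 genes, the log2 change of PS, DR1, DR4 and DR6 against SOL is drawn as a point with its SE, with dashed lines at 2-fold. Cth lies above the upper line at all 4 sites, Csad at DR6 stands at 3.02, and all points of the other 7 genes lie between the lines.

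Counted over the genes, Cth was the only call among 9 genes at PS and among 9 at DR4. It was also the only call among the 8 genes that could be tested at DR1 and at DR6, where Csad is a description. A single call in 9 genes stands beside 4.43% of all genes called at PS and 10.5% at DR4. A single call in 8 genes stands beside 6.09% at DR1 and 6.95% at DR6. With so few genes, 1 call is not read as more than these shares. With the adjusted p alone and no limit of size, 6 of 9 genes passed at PS (5 higher, 1 lower), 7 of 8 at DR1 (5 higher, 2 lower), 7 of 9 at DR4 (5 higher, 2 lower) and 5 of 8 at DR6 (all higher). These directions are those of the brightest probe. The lower ones include Slc6a6 at DR1 and Csad at DR4, both of which were higher than SOL with their other measured probe. Of all genes 32.8%, 47.7%, 54.9% and 43.9% passed at PS, DR1, DR4 and DR6, so the members' counts stand beside a high background. Under normexp with the 75th percentile 0 genes passed at PS, 1 at DR1 (Cth), 1 at DR4 (Cth) and 0 at DR6, and under normexp with quantile normalization 3, 5, 5 and 4. The share of all genes that passed under normexp is not given, so a loss particular to the 9 genes cannot be read from these counts. The median change of the 9 genes was 0.21 at PS, 0.24 at DR1, 0.23 at DR4 and 0.67 at DR6, where the median of all genes was −0.01, 0.01, −0.05 and 0.00. The medians at DR1 and DR6 include Csad, whose values there chose the genes, so these 2 are descriptions only. At DR6 the median hepatocyte marker was also higher than SOL, by 0.52 over all 9 and by 0.65 over the 5 without saturated spots. Its part in the 0.67 was not tested.

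Between polluted sites few differences of the genes other than Csad reached 2-fold. As a description, Csad was 9.89-fold lower at DR4 than at DR6 and 4.97-fold lower at PS than at DR6. It was 3.08-fold higher at PS than at DR1. With its other measured probe these were 6.43-fold, 5-fold and 1.79-fold. None of the 8 testable genes was called between DR4 and DR6, DR1 and DR4, PS and DR1 or PS and DR6, and none of 9 between PS and DR4. In those comparisons 6.16%, 5.14%, 6.37%, 7.32% and 8.96% of all genes were called. Between DR1 and DR6, where 7.84% of all genes were at least 2-fold apart, only Csad was past 2-fold by its brightest probe, and the others ranged from −0.60 for Cbs and −0.57 for Mat1a to 0.54 for Cth, which are descriptions. These counts rest on the brightest probe. The dimmest Ahcy probe, A_52_P176160, differed by −1.16 (2.24-fold) between DR1 and DR6. It was 2.12-fold higher at PS than at DR1 (1.08 ± 0.089, adjusted p = 5.65e-08 over 23467 probes).

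The same pathways hold other enzymes, and 41 of them are described: 39 were on the array and 36 were measured. Of the 36, 0 were called higher and 3 lower at PS, 2 and 1 at DR1, 2 and 6 at DR4, and 2 and 1 at DR6. Of all genes 4.43%, 6.09%, 10.5% and 6.95% were called at these sites, in both directions together. The genes' median median change was −0.16 at PS, −0.14 at DR1, −0.32 at DR4 and −0.28 at DR6, below the median of all genes at each site.

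The called genes included enzymes that act on cysteine, sulfide or glutathione, and they were not recomputed under the alternatives. Got1, the cytosolic aspartate aminotransferase, which also converts cysteine sulfinate and cysteine, rose at the 3 stream sites. It averaged 5.76 ± 0.05 at PS, 6.81 ± 0.02 at DR1, 7.59 ± 0.14 at DR4 and 7.34 ± 0.02 at DR6, against 5.53 ± 0.09 at SOL (SD, n = 4 arrays, 3 at DR6). The change was 1.27 ± 0.063 at DR1 (adjusted p = 1.12e-10), 2.05 ± 0.063 at DR4 (adjusted p = 6.54e-14) and 1.81 ± 0.068 at DR6 (adjusted p = 3.14e-12).

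Mpst, mercaptopyruvate sulfurtransferase, fell at PS (−1.17 ± 0.12, adjusted p = 8.97e-07) and rose at DR1 (1.41 ± 0.12, adjusted p = 6.36e-08). Its site means were −1.42 at PS, 1.17 at DR1, 0.58 at DR4, −0.88 at DR6 and −0.24 at SOL. Tst, the mitochondrial thiosulfate sulfurtransferase, fell at DR4 (−1.27 ± 0.12, adjusted p = 9.8e-08) and DR6 (−1.11 ± 0.13, adjusted p = 2.55e-06). Ggt1, which cleaves glutathione at the cell surface, fell at DR1 (−1.11 ± 0.091, adjusted p = 4.68e-08).

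Other calls concerned creatine synthesis and enzymes that use or supply methyl groups. Nnmt, which methylates nicotinamide, rose at DR4 (1.54 ± 0.072, adjusted p = 4.96e-11) and DR6 (1.04 ± 0.077, adjusted p = 3.32e-08), with 3 SOL arrays in its fit. Gatm and Gamt, the 2 enzymes of creatine synthesis, fell at PS by 1.16 and 1.1 on the log2 scale (adjusted p = 8.86e-07 and 2.38e-12). At DR4 the falls included Shmt1, an enzyme of folate metabolism (−1.34 ± 0.072, adjusted p = 1.15e-10), Gatm (−1.26 ± 0.12, adjusted p = 1.04e-07) and Gamt (−1.09 ± 0.040, adjusted p = 8.22e-13). PS and DR4 are also the sites where all 11 measured exocrine pancreas markers were called lower, against 3 at DR1 and 0 at DR6. By the adjusted p alone all 11 were also lower at DR1 (median −0.87), while at DR6 their median was 0.20. Gatm and Gamt were also below SOL, by less than 2-fold, at DR1 (−0.43 and −0.24) and at DR6 (−0.65 and −0.52). The part of pancreas RNA in the falls of Gatm and Gamt was not tested. The remaining falls at DR4, beside Tst, were Pemt (−1.07) and Sardh (−1.0), which the rule for naming genes does not reach and which are named to complete the count.

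**Figure D5:**
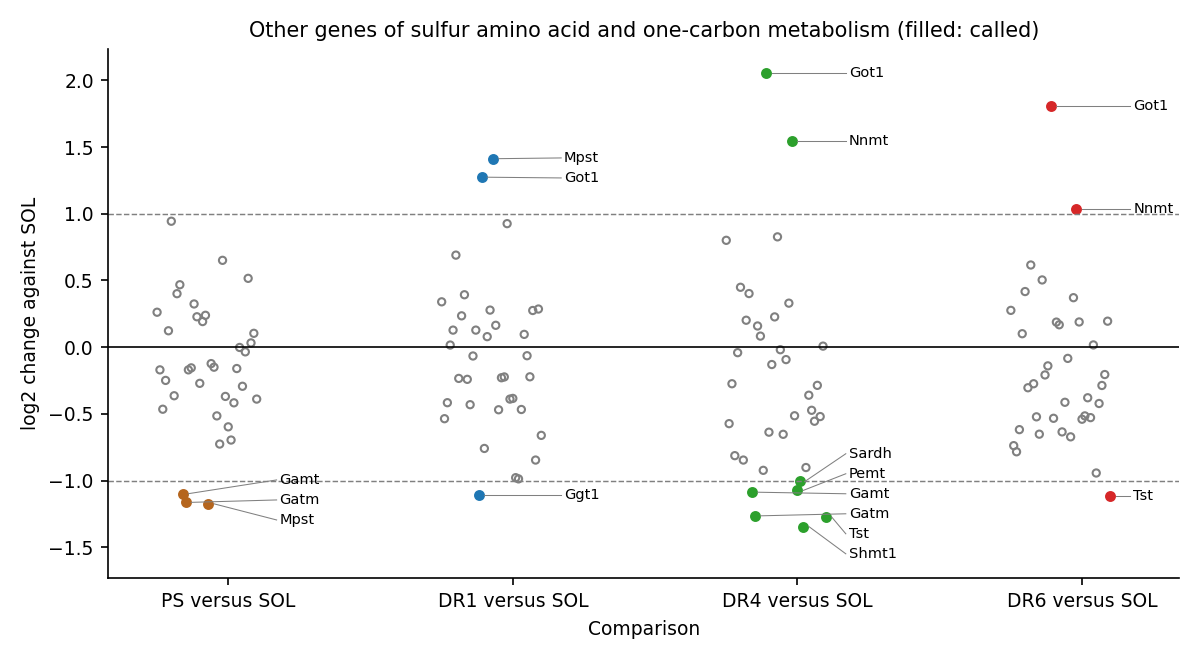
Each point is 1 of the 36 measured further genes of sulfur amino acid and one-carbon metabolism, placed by its log2 change against SOL in 4 comparisons, with dashed lines at 2-fold and filled, labelled points for called genes. The 6 falls at DR4 gather between −1.34 and −1.0, and Got1 is the highest point at DR4 and DR6.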

How the data were processed

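Per the file headers, each scanner file gives the linear intensity of 45018 spots, as deposited. Feature extraction and background subtraction were done by the authors with the Agilent software (Agilent Feature Extraction, version 9.5.3.1 in the submitters' processing notes). The deposited series table repeats this intensity within 0.497%. Here 1639 control spots were removed, and the log2 of the deposited intensity was taken relative to each array's 75th percentile. Spots marked as outliers were treated as missing, and repeated spots of a probe were averaged. Probes had to be well above background on 3 arrays of some site (23471 of 41174 probes), and the brightest such probe stood for a gene. Gene names and mm8 coordinates came from the newer design file, since 5.84% of gene spots carry another name in the design used for DR1.

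A mean per site was fitted to 16355 genes with limma 3.58.1 in R 4.3.3, with two-sided moderated tests and p-values adjusted by Benjamini-Hochberg over all genes of a comparison; 340 genes lacked 1 or more arrays. Differences are the first named site minus the second, ± SE. A second fit used the 5 pools as units, which assumes that the lone SOL pool varies like the others. The number of arrays limits the precision of each pool's value, and having 1 pool per site limits what can be said of a site. The fit was also run on simulated data with 200 changed genes. These data held only scatter between arrays of a site, with no pool or slide effect. The run therefore cannot show how the fit deals with differences between pools. Alternatives were the scaling, background correction, series table, filter, probe rule, outlier spots, the replicate number as a block and each array left out; fits per probe and the window around Csad were added after the data were seen. The genes, the further pathway genes, the marker lists and the tests were chosen with earlier results of these data known. All 9 genes were named, with at most 4 further pathway genes up and 4 down per comparison by size among those called, and the 5 genes nearest to Csad; 1 of these and 1 listed pathway gene are not reported here.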

Additional observations from a re-analysis of the deposited data

How the results depend on the processing

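The median change of all genes against SOL moved by under 0.1 between scalings of the kept genes, while that of PS against DR6 was 0.006 and with median scaling 0.175, and that of DR1 against DR6 ran from −0.073 to 0.093. Calls over all genes dropped under normexp, with the 75th percentile and with quantile normalization, from 724 to 153 and 197 at PS, 996 to 255 and 245 at DR1, 1722 to 768 and 599 at DR4 and 1136 to 225 and 275 at DR6. Requiring all 19 arrays above background gave 390, 552, 1178 and 661. The share of higher calls at DR6 was 67.2%, but 55.8% with median scaling; under normexp with the 75th percentile it was 38.6%, 68.2% and 25.5% at PS, DR1 and DR4, against 50.7%, 58.0% and 51.6%. The cause was not tested.

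Passes by the adjusted p alone were lost most under normexp with the 75th percentile, which left Cth at DR1 and DR4 and no other. With arrays left out the passes were 4 to 6 at PS (Mat1a and Bhmt lost), 6 to 7 at DR1 (Slc6a6), 6 to 7 at DR4 (Cdo1) and 4 to 6 at DR6 (Gnmt). The share of all genes passing is not given for these alternatives, so the passes are descriptions only. Of the 9 genes, 1 was called at PS but 0 under normexp with the 75th percentile. At DR4 normexp with quantile normalization called 2, adding Gnmt (1.09, adjusted p = 0.0115, over a range of 0.000676 to 0.579 between alternatives). At DR6 the call of Cth became 0 with median scaling, quantile normalization and both normexp fits, and the count ran from 0 to 1 with each array left out. DR4 against DR6 had 1 call (Cth) with quantile normalization. PS against DR4 had 1 (Csad, 1.07) with median scaling, and 0 to 1 with arrays left out.

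Small changes took the other sign. At DR1, Ahcy gave 0.003 with quantile normalization, 0.136 and 0.074 under normexp with the 75th percentile and with quantiles, 0.011 without array 4 (−0.059 to 0.011 with each array left out) and 0.013 with probe A_51_P473533, and Slc6a6 gave 0.109 as the mean of its probes and 0.562 with probe A_52_P178151. At DR4, under normexp with the 75th percentile, Cdo1 gave −0.107 and Slc6a6 −0.217; Ahcy gave 0.054 with quantile normalization, 0.255 under normexp with quantiles and 0.10 with probe A_51_P473533, and Csad 0.279 with probe A_51_P268529. At DR6, Ahcy gave −0.006 with medians and −0.001 with quantiles, and Slc6a6 0.011 as the mean of its probes and 0.137 with probe A_52_P178151.

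The labels do not say what the arrays' replicate numbers share. Of 36 pairs of the same number 16 had residuals correlated over 0.1 (median r = 0.088), against 15 of 108 pairs of different numbers (median r = −0.034). With the replicate number as a block the counts of called genes among the 9 were as before, 1 in each comparison with SOL, and Cth at DR6 was 1.02 (adjusted p = 4.03e-08).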
